A study of Mus musculus with 6 samples.

Results

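The RAD genes are a set of DNA repair genes that were named after radiation-sensitive yeast mutants. Transcript ratios of 10 of them, Rad50, Rad52, Rad51b, Rad51d, Rad54l, Rad51ap1, Rad1, Rad9a, Rad17 and Rad18, were examined out of 10698 genes that the array's annotation names. They were chosen by gene symbol, and the choice of symbols was made with the log2 ratios of treated over untreated RNA already known. Those ratios are therefore given as a description. Where a gene is said to be called, that is its result in the fit over all genes, which for these 10 is part of the description and supports nothing. RNA came from RAW 264.7 cells, a mouse macrophage line, treated for 8 h with lipopolysaccharide (LPS) at 100 ng/ml together with LPS-binding protein at 100 pM, and from cells of the same line kept for 8 h without treatment. LPS is an outer membrane component of Gram-negative bacteria, and LPS-binding protein passes it on to the receptor complex. RNA of treated and of untreated cells was hybridised together on 6 two-colour arrays, which formed 3 numbered sets of 2 arrays. In each set treated RNA carried Cy5 on 1 array and Cy3 on the other. Every cell in the study was of 1 cell line, and the labels do not say whether the sets were separate cultures, so the spread between sets may be technical.

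Homologous recombination repairs a double-strand break by copying an intact sister sequence. In that pathway the Rad50 complex holds and processes the broken ends, and further proteins help the single strand so exposed to find and invade the partner strand. The checkpoint clamp is a ring of Rad9, Rad1 and Hus1 that Rad17 loads onto damaged DNA, where it helps to activate the kinase ATR. Rad18 is a ubiquitin ligase that marks the replication clamp PCNA, so that translesion polymerases can copy past a damaged base. Recombination is used mainly in S and G2 phase.

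Each value below is a log2 ratio of treated over untreated RNA, so that a negative value is lower in treated cells. Which dye is on top of the ratio is not written in the table. Cy5 over Cy3 was assumed from the labels' use of test and control, which makes the direction a likely one, and all signs would exchange under the opposite reading. The values are ratios and give no level, so the cell type could not be checked against the level of its markers. The annotation tied 13 probes to the 10 genes. Of these, 12 had a value on all 6 arrays, and 1 of the 2 Rad1 probes was listed at exactly 0 on all 6, which was taken as not measured. The set 2 array with treated RNA in Cy3 gave the highest of the 6 values more often than any other, though its agreement with the others was not the lowest. Its correlation with the mean of the other 5 was r = 0.80, and that of the set 1 array with treated RNA in Cy3 was r = 0.791. The former array was highest for 27.5% of the 9229 genes measured on all arrays (8.74% to 18.3% on the others). It was also highest for 44.4% of 90 other DNA repair genes and for 6 of the 10 RAD genes. Without the set 2 array with treated RNA in Cy3, 8 of the 10 genes were called, with Rad52 and Rad18 added to the 6 named below. That fit of the other 5 arrays had a dye term, which was added after the values were seen. The same model with all 6 arrays called the same 8 genes, so leaving the array out did not change this count. In bulk RNA, fewer cells that carry a transcript and less transcript per cell cannot be told apart.

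All 10 genes had a mean ratio below 0 in treated cells, from -0.82 for Rad54l to -0.029 for Rad17, with a median of -0.27, against a median of -0.0079 over the 10088 genes tested. In limma's fit over all genes, 6 of the 10 passed an adjusted p of 0.05 in the lower direction, namely Rad50, Rad51b, Rad51d, Rad54l, Rad51ap1 and Rad1, and 0 passed in the higher direction. Over all genes 16.7% were called lower and 17.1% higher. Since the set was proposed with this comparison known, nothing is read from the difference between these shares. By class, 5 of 6 recombination genes and 1 of 3 checkpoint clamp genes were called lower. Rad18, the single translesion gene, was not called, though its adjusted p in limma of 0.0513 lay close to the threshold. The mean of Rad18 was lower than those of Rad51d and Rad50, which were called. The recombination count holds 2 calls made on averages of 2 probes that differed. Their probe means were 0.039 and -0.50 for Rad50 and -0.52 and -0.14 for Rad51b.

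Upstream sequences of the 2 genes with the lowest ratios, Rad54l and Rad51ap1, and of Rad17, whose ratio was nearest to 0, show how the ends of this range compare in promoter motifs. They are the 250 bases before the annotated start, 5′ to 3′, from RefSeq on build GRCm38.p6. Capitals mark CCAAT, the binding sequence of the factor NF-Y, or its reverse complement ATTGG.

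Rad54l upstream region, chr4:116123691-116123940, minus strand: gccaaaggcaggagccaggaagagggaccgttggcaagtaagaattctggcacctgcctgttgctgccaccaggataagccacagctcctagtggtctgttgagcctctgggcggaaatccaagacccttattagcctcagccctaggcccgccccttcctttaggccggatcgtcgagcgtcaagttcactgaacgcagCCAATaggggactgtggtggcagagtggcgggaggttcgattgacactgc

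Rad51ap1 upstream region, chr6:126939588-126939837, minus strand: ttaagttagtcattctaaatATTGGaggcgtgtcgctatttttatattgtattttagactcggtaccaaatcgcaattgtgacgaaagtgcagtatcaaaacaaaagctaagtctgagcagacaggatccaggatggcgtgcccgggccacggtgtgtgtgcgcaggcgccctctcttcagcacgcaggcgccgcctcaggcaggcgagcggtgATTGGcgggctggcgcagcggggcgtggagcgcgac

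Rad17 upstream region, chr13:100651062-100651311, minus strand: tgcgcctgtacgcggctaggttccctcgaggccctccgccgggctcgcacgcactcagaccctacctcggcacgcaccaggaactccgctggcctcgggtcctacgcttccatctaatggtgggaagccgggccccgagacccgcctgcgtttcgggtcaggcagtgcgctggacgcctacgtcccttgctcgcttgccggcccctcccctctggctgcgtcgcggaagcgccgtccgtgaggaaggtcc

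Such a window was held for 7 of the 10 genes, the other 3 being Rad50, Rad51d and Rad9a. CCAAT stood on either strand in 3 of the 7, Rad54l, Rad51ap1 and Rad51b, against 34.5% of 27025 mouse promoter windows of the same length. In Rad54l it began 50 bases before the start, in Rad51b 15 bases before it, and in Rad51ap1 at 230 and 36 bases before it. The windows of Rad1, Rad17, Rad18 and Rad52 held no CCAAT on either strand. The E2F motif, searched on both strands as TTTCCCGC, TTTCGCGC, TTTGCCGC and TTTGGCGC, was in 0 of 7 windows and in 1.91% of all. The cell-cycle element TTTGAA was in 0 of 7 against 16.3%, and the GC box GGGCGG was in 2 of 7, Rad52 and Rad54l, against 32.9%. In these windows the motifs searched did not overlap each other. These are matches of letters only.

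Rad54l encodes a motor protein that moves along DNA and drives strand exchange. Its log2 ratios were -0.68, -0.65 and -0.60 where treated RNA was in Cy5, and -1.05, -1.06 and -0.90 where it was in Cy3. All 6 arrays were low, and the Cy3 arrays were all lower than the Cy5 arrays. The mean was -0.82 ± 0.07 (SD, n = 3 sets), or 1.77-fold lower in treated cells, and placed the gene at position 95 from the lowest of 10088, or from the highest under the opposite reading of the dyes. Rad51ap1, a cofactor that stimulates the joining of both DNA molecules, had ratios of -0.67, -0.69 and -0.45 with treated RNA in Cy5 and of -0.65, -0.31 and -0.50 with treated RNA in Cy3. All 6 arrays were again below 0, and the dye orientations overlapped. The mean was -0.54 ± 0.10, or 1.46-fold lower.

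Rad51b and Rad51d encode subunits of a complex that acts on single-stranded DNA early in recombination. Rad51d, measured by 1 probe, had ratios of -0.33, -0.37 and -0.29 with treated RNA in Cy5 and of -0.26, -0.050 and -0.32 with treated RNA in Cy3. The set 2 array with treated RNA in Cy3 stood nearest to 0, apart from the other 5. The mean was -0.27 ± 0.05 (SD, n = 3 sets), or 1.21-fold lower, and the gene was not called without set 3 or on the Cy3 arrays alone. Rad51b averaged -0.33 ± 0.04 over 2 probes that differed from each other. The first probe read -0.66, -0.43 and -0.44 with treated RNA in Cy5 and -0.60, -0.49 and -0.50 with treated RNA in Cy3. The second probe read -0.33, -0.0011 and -0.018 with treated RNA in Cy5, and 0.13, -0.24 and -0.36 with treated RNA in Cy3. The first was thus low on every array with a mean of -0.52 ± 0.09, while the second had a mean of -0.14 ± 0.05 and 1 array above 0, and their ranges did not overlap. With the second probe alone standing for the gene, Rad51b was not called.

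Rad50 is the ATPase of the Mre11 complex, which tethers broken ends. It also had 2 probes that differed. One read -0.16, 0.27 and -0.11 with treated RNA in Cy5 and -0.067, 0.25 and 0.049 with treated RNA in Cy3, with a mean of 0.039 ± 0.20 (SD, n = 3 sets). The other read -0.56, -0.53 and -0.37 with treated RNA in Cy5 and -0.61, -0.46 and -0.45 with treated RNA in Cy3, with a mean of -0.50 ± 0.09. The values of the first probe lay on both sides of 0, and those of the second were all below the lowest of the first. Their average gave the gene a mean of -0.23 ± 0.12, and the call was lost without set 1, without set 3 and in either dye orientation alone. What sets both probes of Rad50 or of Rad51b apart was not tested.

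**Figure D1:**
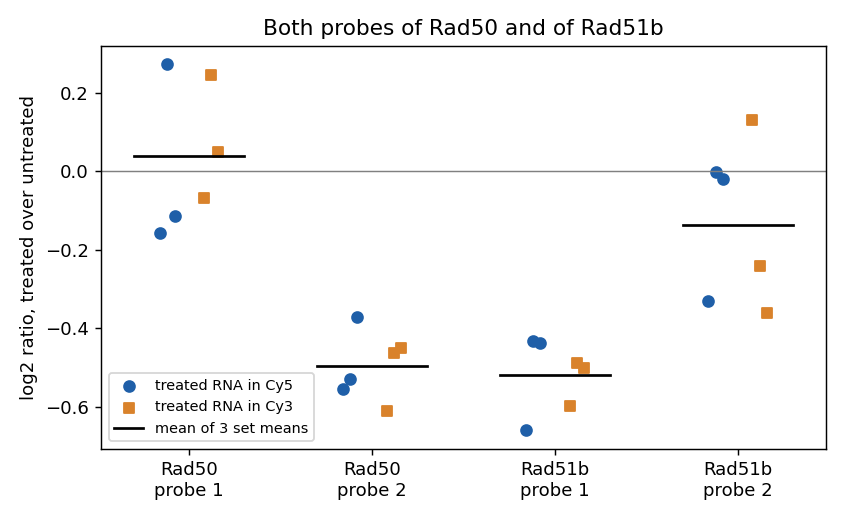
Log2 ratios of treated over untreated RNA (vertical axis) for both probes of Rad50 and of Rad51b, with 1 point per array, circles for treated RNA in Cy5 and squares for treated RNA in Cy3, and a line at the mean of the 3 set means. In each gene 1 probe lies below 0 on all 6 arrays (means of -0.50 and -0.52) and the other lies near 0 (0.039 and -0.14).

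Rad52 anneals complementary single strands. Its ratios were 0.088, -0.046 and -0.0036 with treated RNA in Cy5 and -0.24, -0.23 and -0.33 with treated RNA in Cy3. The Cy5 arrays lay around 0 and the Cy3 arrays all lay lower. The mean was -0.13 ± 0.05 (SD, n = 3 sets), and the gene was not called. It was called on the Cy3 arrays alone and with the 6 arrays as separate replicates.

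Among the checkpoint clamp genes, Rad1, a subunit of the ring, had ratios of -0.44, -0.40 and -0.42 with treated RNA in Cy5 and of -0.28, -0.17 and -0.28 with treated RNA in Cy3. All 6 were below 0, and the Cy5 arrays were all lower than the Cy3 arrays. The mean was -0.33 ± 0.04 (SD, n = 3 sets), or 1.26-fold lower, and the call was lost on the Cy3 arrays alone. Rad9a, the ring subunit that binds the ATR activator, had ratios of -0.030, -0.050 and -0.13 with treated RNA in Cy5 and of -0.033, -0.17 and -0.11 with treated RNA in Cy3. Every value was below 0 but small, with a mean of -0.086 ± 0.05, and the gene was not called. Rad17, the clamp loader, had ratios of -0.15, -0.22 and -0.14 with treated RNA in Cy5 and of 0.084, 0.15 and 0.11 with treated RNA in Cy3. Each dye orientation was of 1 sign and the signs were opposite, a split that 9.56% of the 9229 genes measured on all 6 arrays showed. Rad17 was not called, and the mean of -0.029 ± 0.01 came from values that cancelled. The small SD of Rad17 is thus a spread of set means and not of single arrays.

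Rad18 had ratios of -0.42, -0.20 and -0.52 with treated RNA in Cy5 and of -0.33, 0.14 and -0.34 with treated RNA in Cy3. In set 2 both arrays were higher than in the other sets of the same orientation, and 1 of them was above 0. The mean was -0.28 ± 0.22 (SD, n = 3 sets), the widest spread between sets among the 10 genes. Rad18 was not called, with a set 2 mean of -0.032 beside -0.37 and -0.43 in sets 1 and 3. Without set 2 the mean was -0.40 and the gene was called. It was also called with the set number as a block, with the 6 arrays as separate replicates, with fully measured probes, after scaling, after quantile normalization and on the Cy5 arrays alone. Its mean was -0.36 without the set 2 array with treated RNA in Cy3, where it was called, and -0.23 without set 1 and -0.20 without set 3, where it was not.

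**Figure D2:**
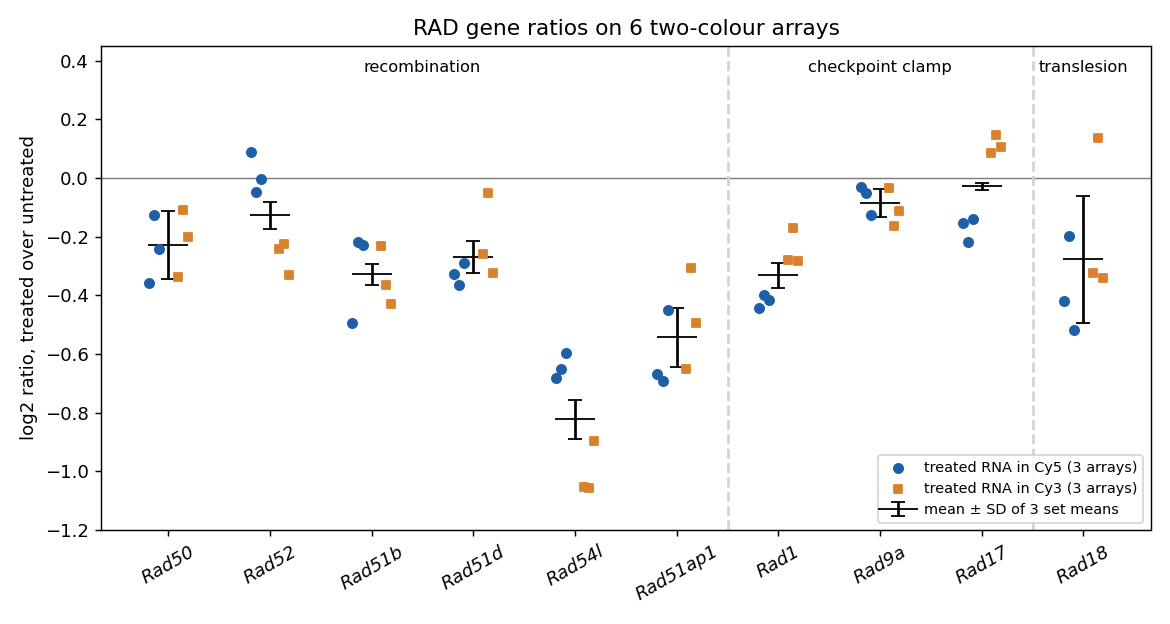
Log2 ratios of treated over untreated RNA (vertical axis) for the 10 RAD genes by class, with 1 point per array, circles for treated RNA in Cy5 and squares for treated RNA in Cy3, and a black bar with the mean ± SD of the 3 set means. Rad54l lies lowest (-0.82), Rad17 has opposite signs in the dye orientations, and 1 Rad18 array stands above 0 at 0.14.

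Ordered by mean ratio, Rad54l came lowest and was followed by Rad51ap1, Rad1, Rad51b, Rad18, Rad51d, Rad50, Rad52, Rad9a and Rad17. The set means of Rad54l, from -0.87 to -0.75, did not overlap those of Rad51ap1, from -0.66 to -0.47. Those of Rad51ap1 did not overlap those of Rad1, from -0.36 to -0.28. From Rad1 on, the ranges of all neighbours in this order overlapped. The recombination genes ran from -0.82 to -0.13 with a median of -0.30, the clamp genes from -0.33 to -0.029 with a median of -0.086, and Rad18 stood at -0.28. The class ranges overlapped. In the 3 sets the recombination median was -0.36, -0.25 and -0.32 and the clamp median was -0.034, -0.11 and -0.12. Because Rad1 lay among the recombination genes and Rad52 near the other clamp genes, the classes were not separated gene by gene.

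With probes averaged per gene, 7 of the 10 genes were below 0 on every array, and over the 9229 genes measured on 6 arrays 17.1% were. The exceptions were Rad52, Rad17 and Rad18. Among the 7, 1 probe of Rad50 and 1 of Rad51b were not below 0 on every array. As the genes were chosen with these ratios known, nothing is read from the difference between the shares. A difference between the dye orientations was tested for each gene in limma's fit of the 6 arrays with a dye term, a measure on which the genes had not been chosen. Of the 10 genes 0 passed an adjusted p of 0.05, against 2.52% of all genes. At an unadjusted p under 0.05 there were 4, Rad54l, Rad17, Rad52 and Rad1, against 26.6% of all genes. The Cy5 mean minus the Cy3 mean was 0.36 for Rad54l (limma's adjusted p = 0.0603), -0.28 for Rad17 (adjusted p = 0.0675), 0.28 for Rad52 (adjusted p = 0.0825) and -0.17 for Rad1 (adjusted p = 0.162). These differences ran in both directions, and for Rad17 and Rad52 they were larger than the mean ratio itself.

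Genes that work with the recombination members were examined in a list that left the 10 out. Of 21 measured, 11 fell and 2 rose in treated cells, with a median of -0.26, beside 16.7% of all genes lower and 17.1% higher. This list, like those below, was drawn up with the general fall of cell cycle genes in these data known. Exo1, a nuclease that resects broken ends, fell by 0.98 on the log2 scale (SD 0.11, n = 3 sets, limma's adjusted p = 0.000109). Fignl1, an ATPase of the pathway, had a ratio of -0.93 ± 0.22 (adjusted p = 0.000612, and -0.55 with zeros kept, since a second probe had 5 values of exactly 0), and Brca1, which helps to start resection, one of -0.92 ± 0.12 (adjusted p = 0.000169). Of Rad50's partners, Mre11a fell to -0.30 ± 0.14 (adjusted p = 0.0162), while Nbn stood at -0.12 ± 0.04 (adjusted p = 0.103). The risen count of the list was 0 without set 3 and on the Cy3 arrays alone. The call of Mre11a was lost without set 3 and on the Cy5 arrays alone. Atm, the break-sensing kinase, was higher at 0.25 ± 0.08 (adjusted p = 0.0133), a call lost without set 3 and on the Cy3 arrays alone. The other that rose, Top3a, stood at 0.20 and is named after its value was seen. Brca2, a mediator of strand invasion, averaged 0.089 ± 0.04 (adjusted p = 0.191) over probes with means of -0.89 and 1.07, so the array gave no single direction for it.

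Of 11 measured partners of the checkpoint clamp, 10 fell and 0 rose, with a median of -0.55, and the exception was the phosphatase gene Cdc25a at -0.083. Over all genes 16.7% were called lower and 17.1% higher. The fell count was 6 on the Cy3 arrays alone. Hus1, the ring subunit that joins Rad9 and Rad1, fell to -0.21 ± 0.10 (SD, n = 3 sets, limma's adjusted p = 0.0313), a call lost without set 1, without set 3 and in either orientation alone. Atr, the kinase the clamp helps to activate, had a ratio of -0.34 ± 0.06 (adjusted p = 0.00283), a call lost on the Cy3 arrays alone. The checkpoint kinase gene Chek2 fell to -0.88 ± 0.08 (adjusted p = 9.75e-05) and Wee1, which restrains entry into mitosis, to -0.88 ± 0.16 (adjusted p = 0.00032). Chek1, the main target of ATR, had a mean of -0.55 ± 0.24 (adjusted p = 0.00608) from 1 probe, and a second probe had 5 values of exactly 0 and 1 of 2.04. With zeros kept as values the mean of Chek1 was -0.11 (adjusted p = 0.403). With the 6 arrays and a dye term it was -0.30 (adjusted p = 0.0998), and the replicate block by set gave an adjusted p of 0.117. The call was lost in each of these fits, and on the Cy3 arrays alone the mean was 0.14. Side by side, the median of the partner list was -0.55, which is the value of Chek1 itself, and that of Rad1, Rad9a and Rad17 was -0.086. Hus1, at -0.21, lay within the range of Rad1, Rad9a and Rad17, from -0.33 to -0.029.

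Of 12 measured translesion partners, 3 fell and 1 rose, with a median of -0.18, beside 16.7% of all genes lower and 17.1% higher. The fell count ran from 2 to 8 over the alternatives, the 8 without the set 2 array with treated RNA in Cy3. Ube2a and Ube2b, the ubiquitin-conjugating enzymes with which Rad18 works, stood at -0.20 ± 0.22 (SD, n = 3 sets, limma's adjusted p = 0.134) and 0.025 ± 0.03 (adjusted p = 0.719). Ube2a was called lower without set 2, with a mean of -0.30, and on the Cy5 arrays alone, whereas its mean was -0.089 without set 1 and -0.0042 on the Cy3 arrays alone. Its 6 values were -0.48, -0.47 and -0.22 with treated RNA in Cy5 and -0.35, 0.51 and -0.17 with treated RNA in Cy3. As for Rad18, the highest value was that of the set 2 array with treated RNA in Cy3. Pcna, the clamp that Rad18 modifies, fell to -0.55 ± 0.04 (adjusted p = 0.00235, n = 2 sets, with 1 value of exactly 0), and Polh, a polymerase that copies past ultraviolet damage, to -0.40 ± 0.05 (adjusted p = 0.0014). Mad2l2, a subunit of polymerase zeta, was higher at 0.20 ± 0.10 (adjusted p = 0.0321), a call lost without set 1, without set 3 and in either orientation alone. Rev3l, another subunit of polymerase zeta, fell to -0.33 ± 0.02 (adjusted p = 0.00229) and is named after its value was seen.

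**Figure D3:**
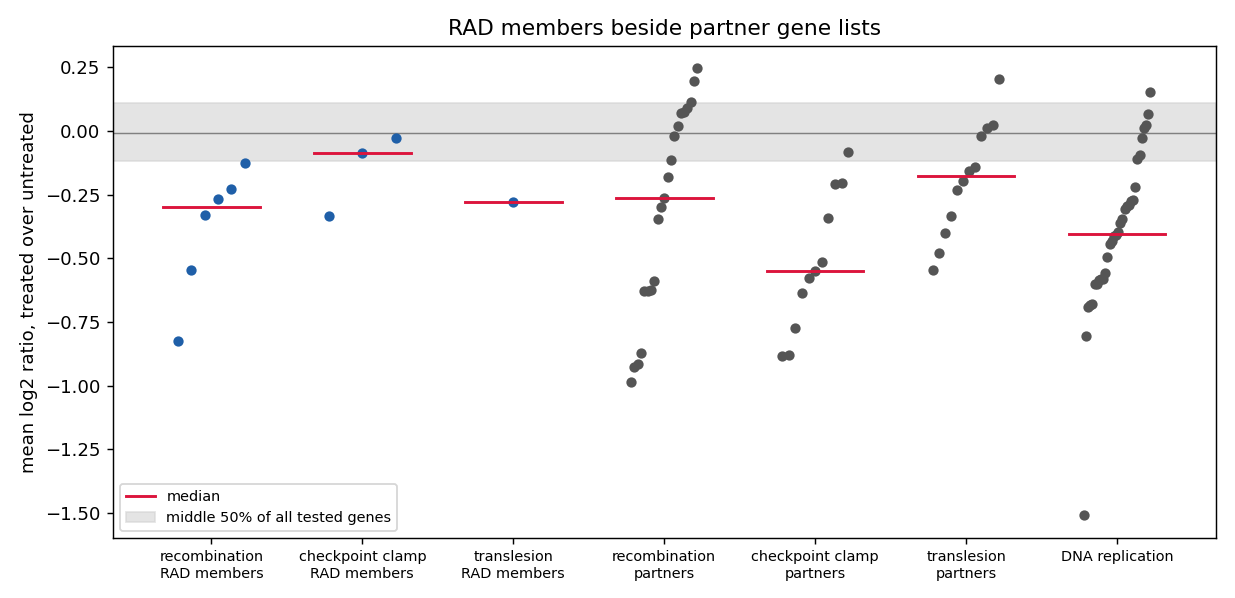
Mean log2 ratios of treated over untreated RNA (vertical axis), 1 point per gene, for the RAD members by class and for 4 gene lists that exclude them. Red lines are medians, and the grey band holds the middle 50% of all tested genes (-0.12 to 0.11), inside which lie Rad9a and Rad17 of the 10 members.

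The remaining repair pathways were read in the same fit, in which 16.7% of all genes were called lower and 17.1% higher. Of 7 Fanconi anaemia genes, which act on crosslinked DNA, 7 fell, with a median of -0.38. Ube2t, the ubiquitin-conjugating enzyme of that pathway, stood at -1.04 ± 0.13 (SD, n = 3 sets) and Fanca, a subunit of its core complex, at -0.50 ± 0.03. Base excision repair genes fell in 9 of 17 cases and rose in 1, with a median of -0.24. The risen gene, Lig3 at 0.17, is named after its value was seen, and it was not called with zeros kept, in either orientation alone, without set 1, without set 3, without the set 2 array with treated RNA in Cy3 or in the 6-array fit without the block. Among those that fell, the ligase gene Lig1 stood at -0.58 ± 0.06 and the scaffold gene Xrcc1 at -0.54 ± 0.04. In mismatch repair 3 of 4 fell (median -0.34), including Msh6 at -0.34 ± 0.12 and Exo1, which was also counted among the recombination partners. Ube2t, Fanca, Lig1, Xrcc1 and Msh6 each passed with an adjusted p of 0.0065 or less in limma. On the Cy3 arrays alone 3 Fanconi anaemia genes and 1 mismatch repair gene fell, and Msh6 was also not called without set 3.

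Nucleotide excision repair genes fell in 6 of 16 cases and rose in 1, with a median of -0.051, beside 16.7% of all genes lower and 17.1% higher. The fell count was 3 without set 3 and 2 on the Cy3 arrays alone. Ddb2, which recognises ultraviolet damage, stood at -1.0 ± 0.19 (SD, n = 3 sets, limma's adjusted p = 0.000292). By contrast, Ercc1, a subunit of an incision nuclease, rose to 0.64 ± 0.07 (adjusted p = 0.00028). Ercc4, the other subunit of that nuclease, stood at 0.007 ± 0.04 (adjusted p = 0.924) and is named after its value was seen. Ercc2, a helicase of the same pathway, stood at -0.43 ± 0.25 (adjusted p = 0.0165), a call lost without set 3 and in either orientation alone. Rad23b, which stabilises the damage sensor Xpc and shares only its name with the recombination genes, stood at 0.14 ± 0.14 (adjusted p = 0.161), and was called higher with the set number as a block (adjusted p = 0.0299) and on the Cy3 arrays alone. In end joining, which seals breaks without a template, 4 of 9 genes fell and 2 rose. The median was -0.086, and Mad2l2, 1 of the 2 that rose, was also counted among the translesion partners. The kinase gene of end joining, Prkdc, stood at -0.42 ± 0.05 and the ubiquitin ligase gene Rnf8 at -0.43 ± 0.04. The polymerase gene Poll rose to 0.36 ± 0.02 (adjusted p at most 0.00161 for Prkdc, Rnf8 and Poll). The call of Poll was lost on the Cy3 arrays alone, where the risen count of the list was 0, and the count was 1 on the Cy5 arrays alone, without set 1 and without set 3.

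Over the 8 repair lists together, with a gene shared between lists counted once, 52 of 95 measured genes (54.7%) fell and 6 rose. Their median was -0.23. Of all genes, 16.7% were called lower and 17.1% higher. The risen count was 2 without set 3, and the fallen count was 38 without set 3 and 34 on the Cy3 arrays alone. DNA replication genes, which like many recombination genes are transcribed in dividing cells, are given beside them. Of 32 measured, 25 fell and 0 rose, with a median of -0.40. Tk1, the thymidine kinase of S phase, stood at -1.51 ± 0.08 and Rrm2, a subunit of ribonucleotide reductase, at -0.81 ± 0.15 (SD, n = 3 sets, limma's adjusted p at most 0.000394). How far the share of cells in S phase entered the ratios of the RAD genes was not tested. Of 12 macrophage markers 6 rose (50%) and 2 fell (16.7%, the same share as over all genes). Of 15 fibroblast, epithelial and lymphoid markers 0 rose and 0 fell, with values from -0.13 to 0.20.

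The genes whose 6 array values lay nearest to those of Rad54l were sought among 9228 genes by Euclidean distance. They were Scd1, a fatty acid desaturase, at a distance of 0.194, Cdkn2c, an inhibitor of cyclin-dependent kinases, at 0.271, and Lmnb2, a nuclear lamin, at 0.277. Their mean ratios were -0.77 ± 0.05, -0.82 ± 0.05 and -0.72 ± 0.09 (SD, n = 3 sets). All 3 were, like Rad54l, lower on the Cy3 mean than on the Cy5 mean. Because they were picked by these same 6 values, their likeness in mean and in dye difference follows from the choice.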

How the data were processed

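The authors deposited 1 log2 ratio for each of 16281 features on each of 6 arrays. Base 2 was inferred from the largest value, 6.643856, which is log2 of 100. Scanner software is not given in the sources used here, nor is any background or dye correction. Array medians without values of exactly 0 were 0.000948 to 0.0212. As deposited, r between arrays of opposite dye orientation was -0.768 to -0.404, so the sign was turned on arrays whose Cy3 channel held treated RNA. The labels spell the line RAW 264.7 in 42 places and 264.4 in 6. Values of exactly 0, 1328 to 2262 per array, were taken as not measured. There were no channel intensities, and precision is limited by how few arrays there are.

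Of the features, 13738 had 1 gene symbol in the platform annotation, 52 had several and 2491 had none. Both arrays of a set were averaged per probe where both were measured, probes were averaged per gene, and the set means of 10088 genes with at least 2 of them were tested against 0 in limma 3.58.1 (lmFit, eBayes, R version 4.3.3), and p-values were adjusted after Benjamini-Hochberg with a threshold of 0.05. Every adjusted p comes from limma. SDs are over set means. The fit was tested on simulated data with known changes. The members, lists and tests were chosen with earlier results of these data known, and the dye term was added after the values were seen. Named genes were the 10 members, their fixed direct partners, the largest called changes of each list that had 1 sign on all measured arrays (2 in each direction, or the smallest p where there was none) and the 3 genes nearest to the member of largest change. Cdc25a, Top3a, Lig3, Rev3l and Ercc4 were added after their values were seen. Alternatives covered zeros, probes, replicate unit, scaling, dye orientation and each set and 1 array left out.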

Additional observations from a re-analysis of the deposited data

Results flagged for a closer look

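The Rad51d value of the set 2 array with treated RNA in Cy3, -0.0497, stood apart from the other 5 arrays, whose values ran from -0.37 to -0.26. The gap made up 0.658 of the whole range, above Dixon's 95% limit for 6 values. Chance passes this limit in about 1 in 20 groups, and 10 genes were examined. The same array gave the highest of 6 values for 6 of the 10 genes and for 27.5% of the 9229 genes measured on all arrays.

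Rad17 was below 0 on all 3 arrays with treated RNA in Cy5 and above 0 on all 3 with treated RNA in Cy3, and 9.56% of the 9229 genes measured on 6 arrays were split in this way in either direction. The Cy5 mean minus the Cy3 mean was -0.283 (limma's adjusted p = 0.0675 in the fit with a dye term).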

How the results depend on the processing

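Of the 10 genes, 4 to 8 were called over all alternatives, and Rad54l and Rad51ap1 were called in every one of them. The count was 6 with zeros kept and after median centring, 5 with 1 probe per gene, and 7 after scaling, after quantile normalization and with probes measured on all 6 arrays. Leaving out a set gave 4 to 7 called members, 1952 to 3373 called genes overall against 3403 (1952 without set 3), 38 to 55 repair genes lower and 2 to 5 higher. It gave medians of -0.32 to -0.28 for recombination genes and -0.11 to -0.070 for clamp genes, and -0.40 to -0.20 for Rad18. With 1 probe per gene the recombination median moved to -0.38. On the Cy5 arrays alone the clamp median was -0.17, Rad52 turned to 0.013, and 3 repair genes were higher. Without the set 2 array with treated RNA in Cy3, 3606 genes were called, and 59 repair genes were lower and 4 higher. On the Cy3 arrays alone Rad17 turned to 0.11 and Chek1 to 0.14, and 34 repair genes were lower and 2 higher. With 1 probe per gene Brca2 stood at -0.89. The other alternatives kept the direction of all 10 RAD genes, and the causes were not tested.

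Same-numbered arrays deviated together from their orientation's mean in the ratios as deposited with r of 0.256, 0.212 and 0.0999 over 12798 features, and 5 of 6 arrays correlated best with their own number. All 3 were positive, 1 of them under 0.1. A deviation in treated over untreated RNA that both arrays of a set shared would have opposite signs as deposited, since the dyes are swapped. These r values therefore do not show shared extracts, and the data alone do not settle the pairing. The reported fit averages arrays by the labels' set number to balance the dyes, and whether a set shared RNA extracts was not tested. With the 6 arrays, a dye term and the set number as replicate block, 3477 genes were called, 7 of them members (Rad18 added), with 53 repair genes lower and 7 higher. Without the block the counts were 3714, 8, 55 and 5. The number of arrays limits every value, and signal over background could not be examined.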
